A study of Mus musculus with 9 samples.

Results

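The genes described here are 40 named genes of the p53 and DNA damage response, taken by symbol from the deposited tables. All 40 were among the 19454 genes listed, and all 40 were among the 14461 genes that passed the filter on low counts and were tested. They fall into 6 classes by textbook role. Trp53 and its regulators form a class of 4. Genes listed here as p53 targets form 3 classes. Of these genes, 11 are linked to cell death, 10 to growth arrest and stress, and 4 to nucleotide supply and DNA repair. Their class rests on the list, and control of each gene by p53 was not tested. The damage sensing genes number 6, and the BCL2 family with the apoptosome gene Apaf1 numbers 5. Their rule uses gene symbols and no measured value, but the members were chosen with earlier results of these data known.

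RNA was sequenced from sorted haematopoietic stem cells (HSCs) of wild-type mouse bone marrow, 1500 cells per library, in 3 groups of 3 libraries. The first group was the control. In the second group the medial prefrontal cortex (mPFC) and the periaqueductal grey (PAG) were inhibited chemogenetically, that is, through a designed receptor that a drug switches on. The library names AAV and AAV-SPD point to an adeno-associated viral vector, but the labels do not name the receptor, its promoter, the drug or what the control mice received. The third group had the same inhibition with supplementary spermidine, a polyamine, at a dose the labels do not give. The series title places the groups in a study of psychological stress, stem cell ageing and gut-derived spermidine. Age, sex, batch, sort markers and the source animals of a library are not in the labels, so p-values measure the spread between these libraries, which may be technical.

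The transcription factor p53, encoded by Trp53, is held at a low level by the ubiquitin ligase MDM2 and is released when the kinases ATM and ATR and their partners CHK2 and CHK1 are switched on by broken or stalled DNA. It then raises the transcription of genes for arrest, repair and mitochondrial cell death, and also of Mdm2, which closes a feedback loop. In HSCs p53 is known for its part in quiescence and in the loss of damaged cells. Much of this control acts on protein stability and phosphorylation, which RNA levels do not show.

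Promoter windows of the members, among the places where p53 could act directly, were searched for the p53-binding decamer. This decamer is the 10-base unit of which a pair makes a full p53 response element. Bases outside the windows were not searched. Windows from 250 bases before to 50 bases after each start, from RefSeq on GRCm38.p6, were found for 31 of the 40 members, in 40 windows. The decamer, searched on both strands, was in 10 of the 40 member windows (25%) and in 2745 of all 32851 windows (8.36%). No member window held a pair of decamers separated by 0 to 13 bases, against 24 of all windows (0.0731%). At so low a rate, finding none is the usual outcome for 40 windows, so this result says nothing particular about the members. A match of letters is a description and not a measured binding site. The stretches of the 9 members with a decamer are printed because these 9 genes moved in both directions below. The decamer is in capitals with 10 bases on either side, read 5′ to 3′ on the gene's strand.
Trp53, chr11:69580274-69580303, + strand: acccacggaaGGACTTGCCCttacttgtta
Mdm2, chr10:117710925-117710954, - strand: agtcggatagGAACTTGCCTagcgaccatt
Ppm1d, chr11:85311112-85311141, + strand: gggcgggggcGAGCTTGCTCttcttgactc
Bax, chr7:45467080-45467109, - strand: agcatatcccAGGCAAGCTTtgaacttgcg
Aen, chr7:78895927-78895956, + strand: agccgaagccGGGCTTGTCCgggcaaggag
Ccng1, chr11:40755452-40755481, - strand: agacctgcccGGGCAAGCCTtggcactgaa
Gadd45a, chr6:67037428-67037457, - strand: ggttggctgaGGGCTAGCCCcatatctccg
Sesn1, chr10:41887256-41887285, + strand: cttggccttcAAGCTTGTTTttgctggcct
Polk, chr13:96519399-96519428, - strand: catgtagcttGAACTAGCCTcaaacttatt
The decamer of Trp53 began 75 bases before the annotated start and that of Gadd45a 40 bases before it. In Mdm2 the distance was 186 bases, in Ccng1 185, in Bax 201 and in Ppm1d 132. In Sesn1 it was 173 bases and in Polk 231. Another window of Sesn1 (chr10:41810324-41810623) and another of Polk (chr13:96542530-96542829) held no decamer. The Polk window without a decamer covers the upstream end of the gene (base 96542579), while the printed Polk stretch lies inside the gene. The decamer of Aen began at base 11 after one annotated start and at -121 from another, so its 2 windows hold the same decamer, which is counted in both. In the comparison of inhibition with control, 5 of these 9 genes were higher (Mdm2, Ppm1d, Ccng1, Sesn1, Polk) and 4 were lower (Trp53, Bax, Aen, Gadd45a). Of all 40 members 17 were higher and 17 lower, and of all genes tested 36.2% and 36.1%. A split in both directions was therefore not particular to genes with a decamer.

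Total counts ran from 16096276 to 25360256 per library, so that the limit of 3 counts that a count of 0 allows lay between 0.118 and 0.186 CPM (counts scaled to a common library size, as in every level below unless TPM is named). This limit and the values near it cover counting error only. Within a group, the members' coefficient of variation had a median of 4.67%. Markers of other blood cells differed between the groups. The summed neutrophil markers took 0.48% to 0.496% of counts in control, 5.59% to 5.71% under inhibition and 2.35% to 2.45% with spermidine, and 10 of 10 neutrophil markers were higher under inhibition than in control. B and plasma cell markers took 0.00771% to 0.00777%, 0.437% to 0.467% and 0.196% to 0.211% of counts in the same order, with 6 of 6 tested markers higher under inhibition. Megakaryocyte markers took 0.269% to 0.272% in control, 0.0115% to 0.0124% under inhibition and 0.0133% to 0.0141% with spermidine, with 5 of 5 lower under inhibition. Monocyte markers took 0.0516% to 0.0534%, 0.0994% to 0.102% and 0.0573% to 0.0603%, with 4 of 5 higher under inhibition. Markers of T and NK cells took 0.119% to 0.129%, 0.177% to 0.191% and 0.112% to 0.123%, with 5 of 5 tested higher under inhibition. Cd3e, which encodes a CD3 chain of the T cell receptor complex, was at means of 0.0374, 0.193 and 0.298 CPM. Its control mean lay below the limit of 3 counts. Red cell markers took 0.163% to 0.170%, 0.0527% to 0.0571% and 0.0294% to 0.0314%, with 3 of 6 higher and 3 of 6 lower under inhibition. The 8 HSC genes took 0.0261% to 0.0262% in control, 0.0257% to 0.0267% under inhibition and 0.0399% to 0.0411% with spermidine, with 4 of 8 higher and 3 of 8 lower under inhibition. Of these, Kit was at 43.3, 36.5 and 46.4 CPM, Slamf1 at 104, 17.6 and 13.7 CPM, Ly6a at 6.21, 83.5 and 94.4 CPM, and Procr, a defining HSC surface marker, at 0.125, 4.10 and 7.58 CPM, so Procr was close to absent in the control libraries. The part of other cells in the members' differences was not tested, and in bulk RNA fewer cells of a type and less RNA per cell cannot be told apart.

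**Figure D1:**
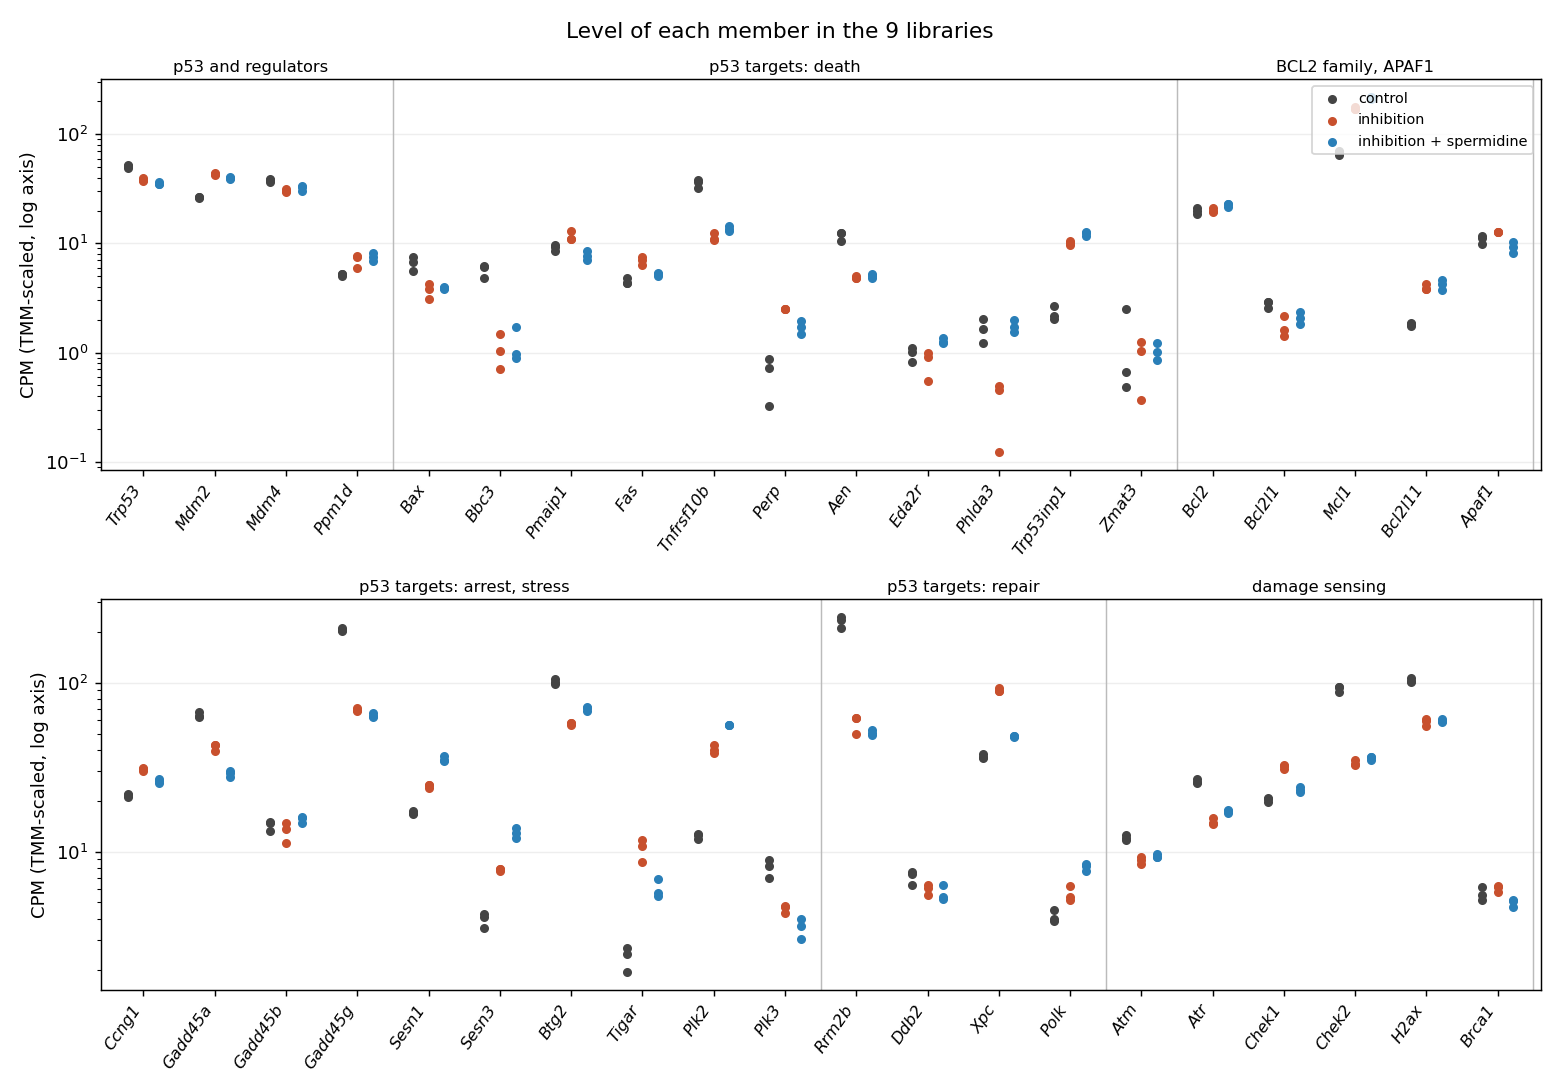
Level of each of the 40 members in every library (TMM-scaled CPM, log axis), by class, with 1 point per library and a colour per group. In CPM, Gadd45g and Rrm2b have the largest falls from control (means of 206 and 230) to inhibition (means of 69.0 and 57.7), while Mcl1 and Plk2 sit lowest in control.

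Inhibition of the mPFC and PAG against control asks how the manipulation of the brain regions changed the HSC transcriptome. The set did not move as a block. Of the 40 members, 17 rose, 17 fell and 6 did not pass edgeR's quasi-likelihood test with Benjamini-Hochberg adjustment over all genes tested. Across all genes 72.4% passed, 36.2% higher and 36.1% lower, so a call was the usual outcome for a gene and the members' share in each direction (42.5%) was near the background. The 3 values of one group lay entirely above or below the 3 of the other for 34 members, against 74.5% of all genes. The median member log2 fold change was -0.17 (all genes 0.02), and the median of its absolute size was 0.75 (all genes 0.59). Changes of at least 2-fold that passed were seen in 7 members upward and 7 downward, against 29% of all genes in either direction. Under total counts the member counts were the same. The p53 targets were split, with 11 of 25 higher and 10 of 25 lower and a median of -0.24. The damage sensing genes had 4 of 6 lower and 1 higher with a median of -0.62, and the BCL2 family with Apaf1 had 3 of 5 higher and 1 lower with a median of 0.23, which in TPM became 1 higher and 1 lower. These medians describe the classes, and the difference between classes was not tested.

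Trp53 itself was at 52.7, 51.3 and 49.4 CPM in the control libraries, 37.3, 37.8 and 40.0 under inhibition, and 34.8, 35.3 and 36.5 with spermidine. The control libraries were the highest, with no overlap with either other group. Trp53 fell under inhibition by 0.41 on the log2 scale (SE 0.045, adjusted p = 3.1e-07). Mdm2, whose product marks p53 for destruction and which p53 in turn activates, was at 25.9, 26.8 and 26.7 CPM in control and 43.3, 43.9 and 42.5 under inhibition. It moved opposite to Trp53 and rose by 0.71 (SE 0.044, adjusted p = 2.3e-10). The spermidine libraries had 40.5, 39.4 and 39.1 CPM of Mdm2, below inhibition and above control. Mdm4, which binds p53 and blocks its activity, fell by 0.31 (adjusted p = 4.7e-05), from a mean of 37.8 ± 1.1 CPM (SD, n = 3 here and throughout) to 30.5 ± 0.86 CPM. In log2(TPM + 1) the fall of Mdm4 was 0.80 (limma adjusted p = 4.8e-05). Its ratio of count to TPM rose by 0.67 on the log2 scale against the median gene. Ppm1d, the phosphatase that ends damage signalling and is a p53 target, rose by 0.44 (adjusted p = 0.003), from 5.15 ± 0.099 to 7.06 ± 0.98 CPM. Both were without overlap between these groups.

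Among the 11 targets linked to cell death, 5 fell, 4 rose and 2 did not pass. Those that fell included Bbc3 and Bax, of the mitochondrial route to death. Bbc3, which encodes PUMA, a protein that frees BAX and BAK to open the mitochondrial membrane, was at 4.79, 6.06 and 6.24 CPM in control, at 1.47, 1.04 and 0.700 under inhibition and at 0.966, 0.899 and 1.71 with spermidine. The control libraries stood apart from both other groups, which overlapped each other. The log2 fold change under inhibition was -2.44 (SE 0.23, adjusted p = 6.5e-08). Bax, the pore protein itself, fell by 0.81 (SE 0.14, adjusted p = 5.4e-05), from 6.65 ± 1.0 to 3.73 ± 0.61 CPM. Aen, an exonuclease that digests DNA in dying cells, fell by 1.26 (adjusted p = 3.3e-09), from 11.7 ± 1.1 to 4.90 ± 0.082 CPM.

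The death receptors went different ways. Tnfrsf10b, the mouse TRAIL receptor, was at 38.1, 32.3 and 36.2 CPM in control, 10.7, 12.4 and 11 under inhibition and 14.6, 13.1 and 13.5 with spermidine. Its log2 fold change under inhibition was -1.63 (SE 0.076, adjusted p = 4.1e-12), with no overlap. Its effective length, taken as the ratio of count to TPM, also rose by 0.69 on the log2 scale against the median gene. Read coverage itself was not examined. Fas, the receptor for FAS ligand, rose by 0.61 (SE 0.10, adjusted p = 5.7e-05), from 4.53 ± 0.28 to 6.96 ± 0.55 CPM. Eda2r, a receptor of the same family, was at 0.978 ± 0.14 and 0.815 ± 0.23 CPM and did not pass (log2 fold change -0.26, adjusted p = 0.41). In TPM, however, Eda2r went from 0.593 ± 0.23 to 0.184 ± 0.093, a passing fall of 0.42 in log2(TPM + 1) (limma adjusted p = 0.0052). The effective length of Eda2r by the same ratio rose by 1.49 on the log2 scale, on 11 to 22 counts per library of these groups.

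Pmaip1, which encodes NOXA, a small protein that binds and removes MCL1, was at 9.34, 9.76 and 8.56 CPM in control, 12.9, 11.1 and 10.9 under inhibition and 7.69, 7 and 8.46 with spermidine. It was highest under inhibition and lowest with spermidine, and the 3 groups did not overlap. Its rise under inhibition was 0.33 (SE 0.094, adjusted p = 0.005). Trp53inp1, whose product binds p53 and takes part in autophagy and cell death, was at 2.18, 2.68 and 2.01 CPM in control, 10.1, 10.6 and 9.64 under inhibition and 12.8, 11.6 and 12.4 with spermidine. It rose by 2.14 under inhibition (SE 0.12, adjusted p = 2.9e-11), among the largest member changes. Perp, a membrane protein gene named for its role in p53-driven death, rose by 1.96 (SE 0.26, adjusted p = 3.7e-06) at low levels, from 0.642 ± 0.29 to 2.52 ± 0.017 CPM.

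Phlda3, which competes with AKT for membrane lipids and so restrains survival signalling, was at 1.21, 2.04 and 1.65 CPM in control, 0.123, 0.498 and 0.450 under inhibition and 1.53, 1.72 and 1.99 with spermidine. The inhibition libraries were the lowest, and the other groups overlapped. These levels rest on 20, 38 and 32 counts in control, 2, 12 and 9 under inhibition and 38, 44 and 36 with spermidine, so 1 inhibition library lay below the limit of 3 counts. The log2 fold change under inhibition was -2.10 (SE 0.34, adjusted p = 3.6e-05). Zmat3, a zinc finger RNA-binding protein gene, rested on 6 to 49 counts per library and did not pass in any comparison. One control library had 49 counts of Zmat3 where the others of its group had 11 and 9.

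**Figure D2:**
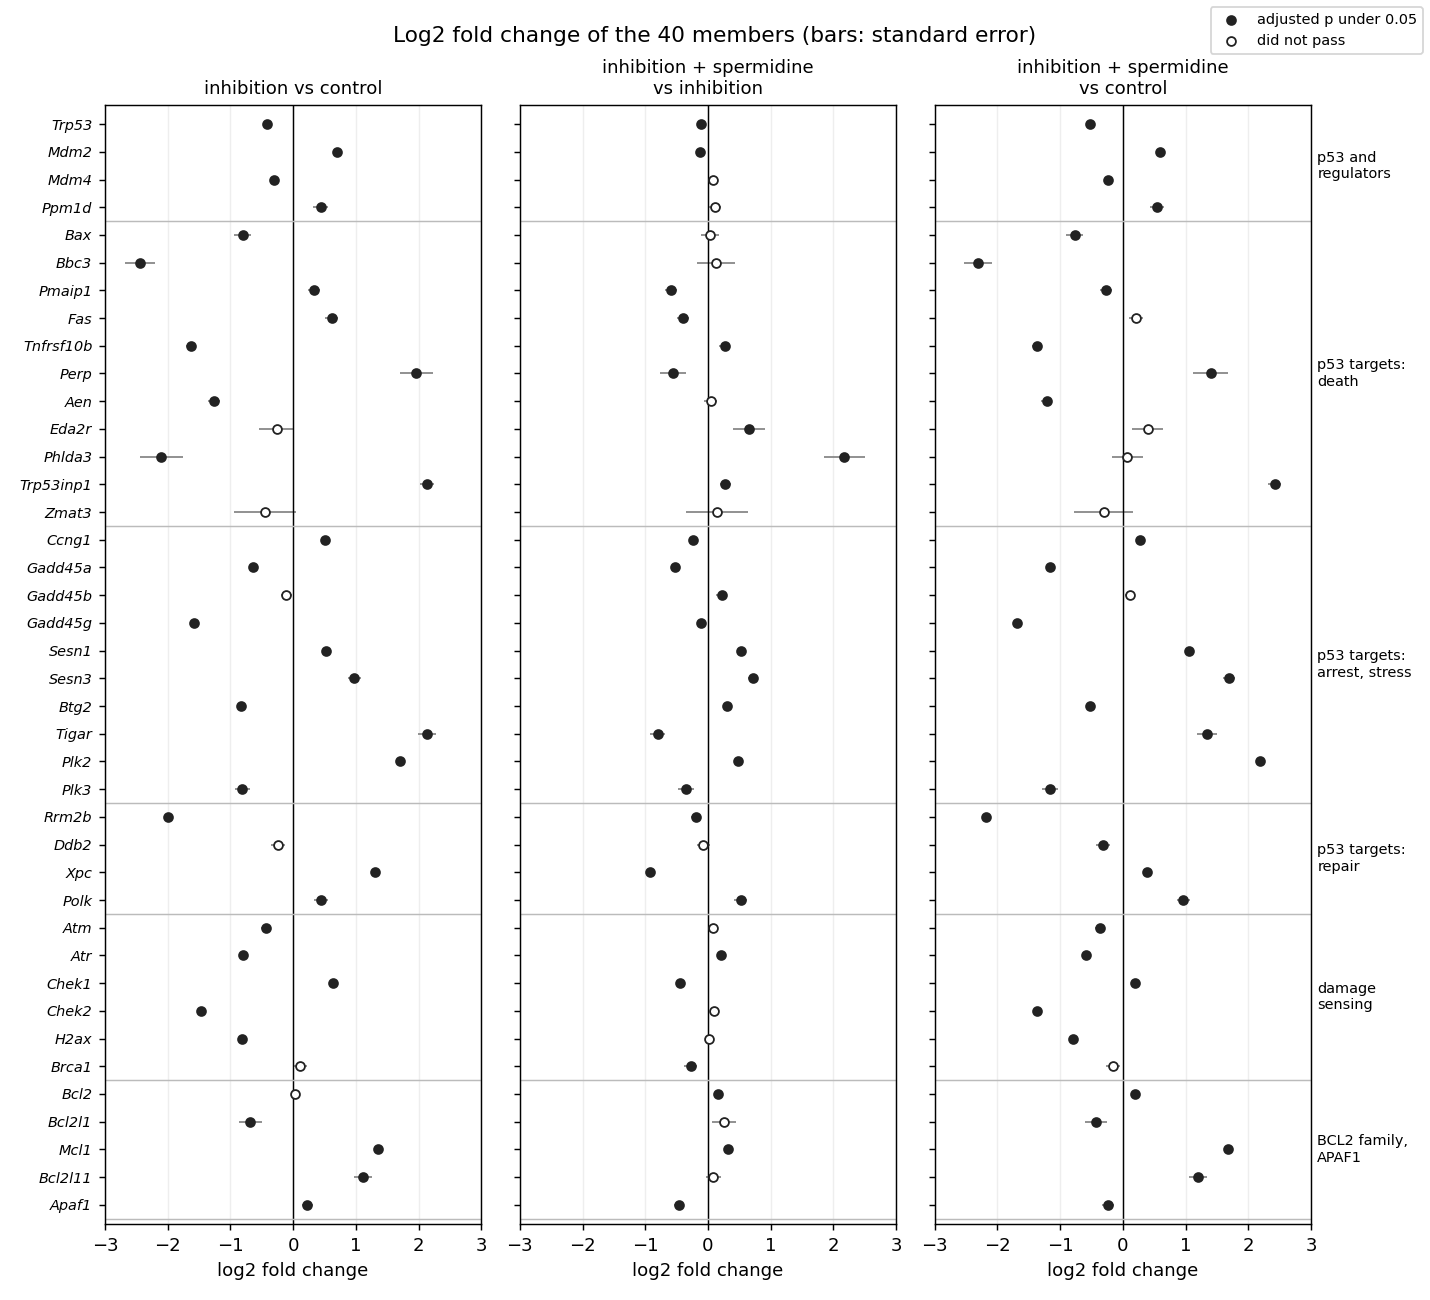
Log2 fold change of each member (x axis, points) with its standard error (bars) in the 3 comparisons, which share groups. Filled points passed at an adjusted p under 0.05. In the first panel Trp53inp1 (2.14) and Bbc3 (-2.44), both p53 targets linked to death, lie at opposite ends.

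Of the 10 targets linked to arrest and stress, 5 rose, 4 fell and 1 did not pass under inhibition. The GADD45 genes encode small stress proteins that bind cyclin-dependent kinase complexes, PCNA and stress kinases. Gadd45g, the most abundant of them, was at 211, 202 and 205 CPM in control, 68.7, 70.6 and 67.7 under inhibition and 63.2, 66.1 and 62.7 with spermidine. It fell by 1.58 under inhibition (SE 0.035, adjusted p = 1.9e-16). Gadd45a was at 67.2, 62.6 and 63.5 CPM in control, 42.7, 39.6 and 42.6 under inhibition and 27.5, 29.4 and 29.9 with spermidine. The 3 groups were ordered without overlap, and the fall under inhibition was 0.63 (SE 0.047, adjusted p = 2.5e-09). Gadd45b was at 14.4 ± 0.94 and 13.2 ± 1.8 CPM and did not pass (log2 fold change -0.11, adjusted p = 0.30). On the TPM scale, which corrects for length and so allows levels to be set against each other between genes, Gadd45g made up 74.9 ± 0.26% of the GADD45 sum in control, 59.9 ± 0.89% under inhibition and 63.8 ± 1.1% with spermidine.

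The sestrins restrain mTORC1 and oxidative stress. Both members among them rose, while the third sestrin gene, Sesn2, which is no member, fell (from a mean of 1.31 to 0.502 CPM, log2 fold change -1.39, adjusted p = 4.3e-04). Sesn1 was at 16.7, 17.3 and 17.0 CPM in control, 24.9, 23.7 and 24.9 under inhibition and 34.3, 35.0 and 37.0 with spermidine. It rose by 0.52 under inhibition (SE 0.056, adjusted p = 2.8e-07), and no group overlapped another. Sesn3 rose by 0.97 (SE 0.11, adjusted p = 3.2e-07), from 3.96 ± 0.40 to 7.80 ± 0.11 CPM. On the TPM scale its difference was 0.08 in log2(TPM + 1), and limma gave an adjusted p of 0.54. Beside this, the effective length of Sesn3, the ratio of count to TPM, was longer under inhibition by 0.87 on the log2 scale.

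Plk2, a stress-induced kinase, was at 12.6, 11.8 and 12.8 CPM in control, 38.4, 42.8 and 40.1 under inhibition and 56.3, 56.4 and 56.2 with spermidine. It rose by 1.71 under inhibition (SE 0.057, adjusted p = 4.3e-14), while its relative Plk3 fell by 0.81 (SE 0.12, adjusted p = 1.1e-05) from 8.01 ± 0.96 to 4.58 ± 0.21 CPM. Plk3 shares 84 exon bases with Tctex1d4 on the opposite strand, and the labels state no strand-specific step. Btg2, an antiproliferative gene that responds early to many stimuli, was at 105, 97.9 and 102 CPM in control, 57.7, 57.4 and 56.1 under inhibition and 70.8, 72.2 and 68.3 with spermidine. It fell by 0.83 under inhibition (SE 0.038, adjusted p = 3.7e-12), and spermidine libraries lay between the other groups. Tigar, which lowers glycolysis and feeds the pentose phosphate pathway, was at 1.94, 2.68 and 2.48 CPM in control, 8.72, 10.8 and 11.7 under inhibition and 5.44, 6.84 and 5.69 with spermidine. Its rise under inhibition was 2.14 (SE 0.15, adjusted p = 9.9e-10), again with the spermidine libraries in between. Ccng1, the cyclin G1 gene, rose by 0.51 (SE 0.051, adjusted p = 1.4e-07), from 21.6 ± 0.49 to 30.7 ± 0.79 CPM.

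Beside the arrest genes, 15 of 18 immediate-early genes were lower under inhibition and 2 were higher, with a median of -0.70. Jun went from a mean of 326 CPM in control to 75.5 CPM (log2 fold change -2.11), and Egr1 from 80.7 to 19.1 CPM (-2.09). Btg2, Plk3 and the GADD45 genes are themselves known to respond to acute stimuli, and the part of this response in their differences was not tested.

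The repair targets held the largest member difference in CPM. Rrm2b, the p53-inducible subunit of ribonucleotide reductase, was at 245, 234 and 211 CPM in control, 49.8, 61.5 and 61.7 under inhibition and 48.8, 52.9 and 50.1 with spermidine. Control stood far above both other groups, which overlapped. The log2 fold change under inhibition was -1.99 (SE 0.067, adjusted p = 5.0e-14). Its cell-cycle relative Rrm2, which is not a member, was at means of 77.1, 209 and 116 CPM and rose by 1.44 under inhibition (adjusted p = 5.1e-15). Xpc, which recognises helix-distorting lesions in nucleotide excision repair, was at 37.6, 36.5 and 36.0 CPM in control, 89.9, 89.0 and 93.3 under inhibition and 48.3, 47.4 and 48.4 with spermidine. The groups were far apart, with inhibition highest, and the rise was 1.31 (SE 0.039, adjusted p = 7.9e-15). Ddb2, its partner in sensing ultraviolet damage, did not pass (log2 fold change -0.24, adjusted p = 0.057), though it passed without control library 2 (0.026) or spermidine library 1 (0.049). Ddb2 shares 652 exon bases with Acp2 on the opposite strand. Polk, a translesion polymerase, rose by 0.45 (SE 0.12, adjusted p = 0.0027), from 4.13 ± 0.36 to 5.61 ± 0.59 CPM, but its TPM difference was 0.04 (limma adjusted p = 0.64).

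Of the 6 damage sensing genes, 4 fell, Chek1 rose and Brca1 did not pass. Chek2, the kinase activated by ATM at double-strand breaks, was at 94.5, 94.7 and 88.5 CPM in control, 34.8, 33.1 and 32.6 under inhibition and 36.3, 36.6 and 34.8 with spermidine. Control was highest without overlap, and Chek2 fell by 1.47 under inhibition (SE 0.043, adjusted p = 8.1e-15). Its effective length was longer by 0.80 on the log2 scale under inhibition, and its TPM went from a mean of 248 in control to 53.7 and, with spermidine, 83.6. Chek1, the kinase downstream of ATR that is expressed in cycling cells, was at 19.6, 20.6 and 20.8 CPM in control, 32, 32.5 and 30.7 under inhibition and 23.2, 22.5 and 24 with spermidine. It rose by 0.64 (SE 0.053, adjusted p = 9.9e-09), with spermidine libraries between the others. Atm fell by 0.44 (adjusted p = 6.6e-05), from 12.1 ± 0.39 to 8.92 ± 0.45 CPM. Atr fell by 0.79 (SE 0.058, adjusted p = 2.1e-09), from 26.0 ± 0.77 to 15.1 ± 0.70 CPM. H2ax, the histone variant phosphorylated at breaks, was at 101, 102 and 106 CPM in control, 55.5, 61.3 and 59.0 under inhibition and 58.5, 59.1 and 61.3 with spermidine. It fell by 0.81 (SE 0.041, adjusted p = 1.1e-11), and the other groups overlapped. Brca1, of homologous recombination, was at 5.62 ± 0.53 and 6.08 ± 0.30 CPM and did not pass (0.11, adjusted p = 0.36).

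In the BCL2 family the survival gene Mcl1, on which HSCs are known to depend, moved the most. It was at 64.9, 69.9 and 68.5 CPM in control, 178, 171 and 170 under inhibition and 220, 217 and 211 with spermidine. The order of the 3 groups had no overlap, and the rise under inhibition was 1.35 (SE 0.037, adjusted p = 2.7e-15). Bcl2 itself was at 19.8 ± 1.2 and 20.2 ± 0.78 CPM and did not pass (0.03, adjusted p = 0.67). Bcl2l1, which encodes BCL-XL, fell by 0.68 (SE 0.19, adjusted p = 0.0038) at low levels, from 2.79 ± 0.19 to 1.73 ± 0.38 CPM. As TPM, Mcl1 made up 79.2 ± 1.0% of the sum of these 3 survival genes in control, 91.5 ± 0.18% under inhibition and 92.2 ± 0.58% with spermidine. Bcl2l11, which encodes the death-promoting BIM and whose effective length was longer by 0.79, rose by 1.11 (SE 0.15, adjusted p = 3.8e-06), from 1.82 ± 0.061 to 3.95 ± 0.25 CPM, whereas its TPM difference was 0.17 (limma adjusted p = 0.17). Apaf1, the apoptosome scaffold, was at 11.2, 11.7 and 9.90 CPM in control and 12.8 CPM in each inhibition library, a rise of 0.23 (adjusted p = 0.030). That call was lost without control library 3 or any 1 of the inhibition libraries (adjusted p between 0.054 and 0.16), and in TPM (0.12, limma adjusted p = 0.19).

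**Figure D3:**
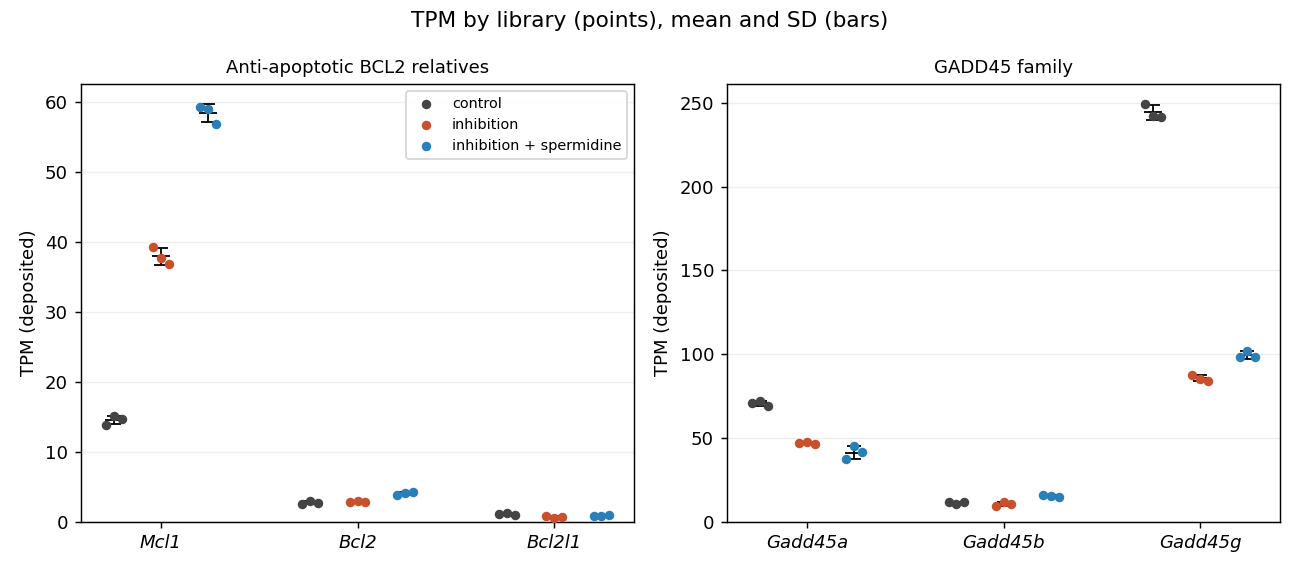
TPM of Mcl1, Bcl2 and Bcl2l1 and of Gadd45a, Gadd45b and Gadd45g in every library (points) with the group mean and SD (bars). Mcl1 goes from a mean of 14.5 TPM in control to 37.9 under inhibition and 58.4 with spermidine, while Gadd45g goes from 244 to 85.6 and 99.5.

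The inhibited group with spermidine was next set against inhibition alone, which asks what the supplement changed. This comparison uses the inhibition libraries again, so its values are not independent of those above. Of the 40 members, 13 rose, 15 fell and 12 did not pass, against 58.1% of all genes that passed, 29.1% higher and 28.9% lower. The groups did not overlap for 27 members, against 62.8% of all genes. Only 1 member that passed changed by at least 2-fold (all genes 12.7%), and the median absolute log2 change was 0.26, below the 0.32 of all genes. The split between higher and lower depended on the scaling. The spermidine libraries had TMM factors of 1.12 to 1.14 against 0.931 to 0.95 under inhibition, and scaling by total counts alone moved the median gene by 0.26 and gave 24 members higher and 5 lower. On the TPM scale limma gave 21 and 3, DESeq2 on counts 8 and 10, and the fit without inhibition library 2 gave 13 and 9. Some calls kept their direction and passed under every other setting that tested the gene. These numbered 7 of 13 upward (Phlda3, Sesn1, Sesn3, Btg2, Plk2, Polk, Mcl1) and 2 of 15 downward (Gadd45a, Xpc). The other settings numbered 19, but 18 for Phlda3, which fell below the filter of 5 CPM in 3 libraries.

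The largest change with spermidine was that of Phlda3, at 2.18 (SE 0.33, adjusted p = 3.7e-05), from the low inhibition counts given above back to the range of the control libraries. Xpc fell by 0.92 (SE 0.036, adjusted p = 3.5e-12), and its 3 spermidine libraries lay near 48.0 CPM against means of 90.7 under inhibition and 36.7 in control. Gadd45a fell by 0.52 (SE 0.050, adjusted p = 2.1e-07), away from its control level. Sesn1 rose again by 0.53 (SE 0.050, adjusted p = 1.6e-07) and Sesn3 by 0.72 (SE 0.084, adjusted p = 2.1e-06), from 7.80 ± 0.11 to 12.9 ± 0.94 CPM, whereas Sesn2 did not pass (0.39, adjusted p = 0.31). Plk2 rose by 0.47 (SE 0.045, adjusted p = 2.0e-07) and Mcl1 by 0.32 (SE 0.034, adjusted p = 5.7e-07), both further from control. Btg2 rose by 0.31 (SE 0.039, adjusted p = 5.3e-06), towards control. The polymerase gene Polk rose by 0.52 (SE 0.10, adjusted p = 3.7e-04), from 5.61 ± 0.59 to 8.09 ± 0.37 CPM.

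Other calls of this comparison held in each fit that left out 1 library but not under every scaling or unit. Tigar fell by 0.80 (adjusted p = 3.1e-05), and by 0.54 under total counts and 0.41 in log2(TPM + 1), with a call in both, but with log2(TPM + 0.1) limma's adjusted p was 0.051. The NOXA gene Pmaip1 fell by 0.59 (adjusted p = 5.2e-05), and in TPM by 0.19 with no call (limma adjusted p = 0.062). Chek1 fell by 0.45 (adjusted p = 1.3e-06), and in TPM by 0.05 with no call (limma adjusted p = 0.65). For Fas the fall was 0.40 (adjusted p = 0.0024), and total counts gave a log2 change of -0.14 with no call (adjusted p = 0.24). The cyclin gene Ccng1 fell by 0.24 (adjusted p = 6.3e-04) but had 0.03 under total counts and 0.06 in TPM. Apaf1 fell by 0.46 (adjusted p = 2.8e-04) and had 0.11 in TPM. Trp53inp1 rose by 0.28 (adjusted p = 0.0084; 0.081 with DESeq2) and Atr by 0.21 (adjusted p = 0.0073; 0.085 with DESeq2).

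The remaining 11 calls were each lost when a single library was left out. For Trp53 (fell by 0.11, adjusted p = 0.041; log2 change of 0.15 under total counts and 0.18 in TPM) these were control library 2, inhibition libraries 2 and 3 and spermidine libraries 1 and 2 (adjusted p between 0.051 and 0.17). Mdm2 (fell by 0.12, adjusted p = 0.018; 0.14 under total counts and in TPM) lost its call without inhibition library 2 or spermidine library 2 or 3 (0.053 to 0.072). Gadd45g (fell by 0.11, adjusted p = 0.020; 0.15 under total counts and 0.22 in TPM) lost it without inhibition library 2 or spermidine library 1 or 3 (0.065 to 0.099). Rrm2b (fell by 0.19, adjusted p = 0.030; 0.07 under total counts and 0.01 in TPM) lost it without inhibition library 2 or 3 or spermidine library 1 or 3 (0.066 to 0.14). These small differences had no direction that held across scalings. Perp (fell by 0.56, adjusted p = 0.029) lost its call without inhibition library 1, 2 or 3 or spermidine library 1 or 2 (0.053 to 0.11). Plk3 (fell by 0.35, adjusted p = 0.031) did so without inhibition library 1 or 2 or spermidine library 1 or 3 (0.062 to 0.11). Brca1 (fell by 0.27, adjusted p = 0.033, but 0.32 in TPM) lost it without inhibition library 1 or 3 or spermidine library 2 or 3 (0.060 to 0.097), and Bcl2 (rose by 0.16, adjusted p = 0.033) without those same libraries (0.079 to 0.10). Tnfrsf10b (rose by 0.27, adjusted p = 0.013) lost it without spermidine library 1 (0.062). Eda2r (rose by 0.66, adjusted p = 0.036) lost it without inhibition library 3 or any 1 spermidine library (0.052 to 0.16). Gadd45b (rose by 0.22, adjusted p = 0.038, with overlapping groups) lost it without inhibition library 1 or 3 or spermidine library 1 or 2 (0.065 to 0.18). With the replicate number as a block, Trp53 (adjusted p = 0.058) and Gadd45b (0.051) also missed the threshold.

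In the main fit no change between these groups was detected for Bbc3 (0.13, adjusted p = 0.73), Bax (0.04, 0.84), Aen (0.04, 0.76) or H2ax (0.02, 0.69), all genes that stood apart from control under inhibition. This depended on the scaling for all of them but Bbc3. Under total counts H2ax (0.28, adjusted p = 3.4e-05) and Aen (0.30, 0.021) passed as higher with spermidine. In TPM H2ax (0.33, limma adjusted p = 1.1e-04) and Bax (0.32, 0.038) did so. Chek2 did not pass (0.10, adjusted p = 0.064), although its groups did not overlap and it passed without inhibition library 1 (0.037). Under total counts Chek2 rose by 0.37 (adjusted p = 4.4e-06) and in TPM by 0.63 (limma adjusted p = 3.9e-06), with a call in both. The others that did not pass were Mdm4, Ppm1d, Zmat3, Ddb2, Atm, Bcl2l1 and Bcl2l11, with log2 fold changes from -0.07 to 0.25. Under total counts Mdm4 (0.34, adjusted p = 4.0e-05), Ppm1d (0.37, 0.0055) and Atm (0.34, 0.0014) passed as higher. Bcl2l1 (0.51, 0.024) and Bcl2l11 (0.35, 0.022) also passed there. In TPM Ppm1d (0.28, limma adjusted p = 0.015), Bcl2l11 (0.34, 0.021) and Ddb2 (0.24, 0.040) passed as higher.

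**Figure D4:**
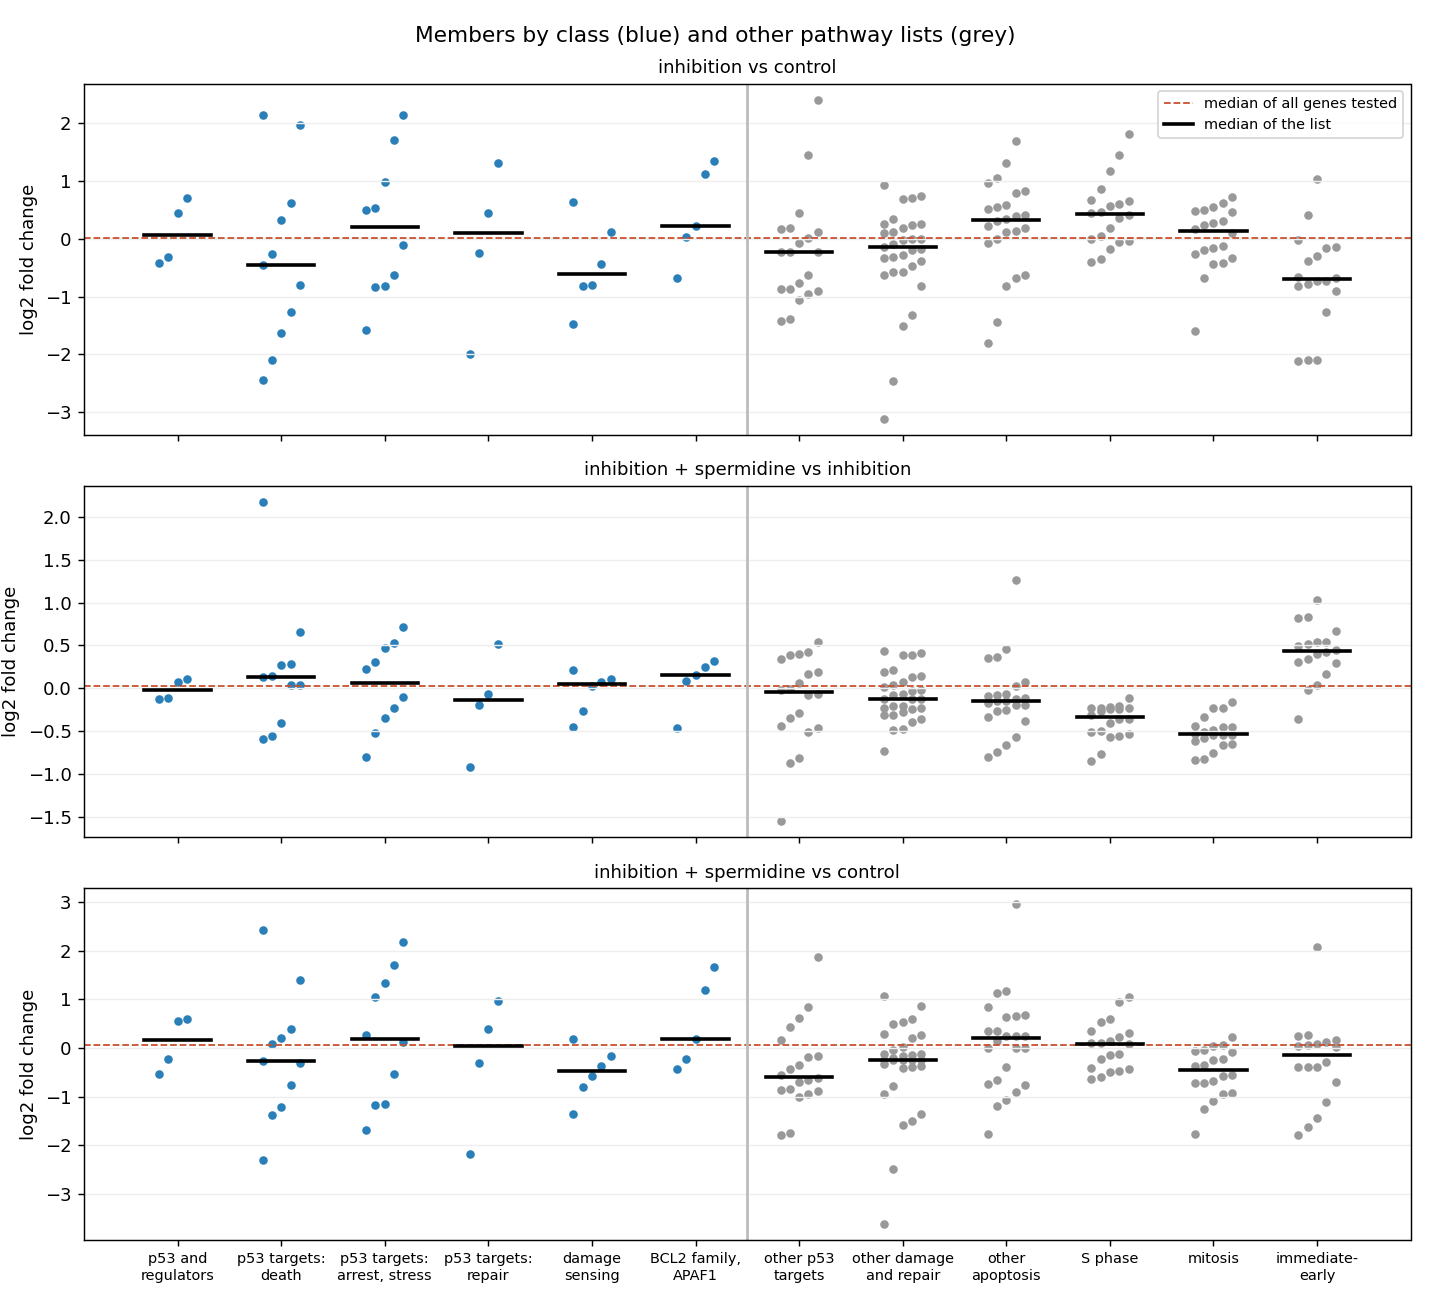
Log2 fold change of each member by class (blue points) and of each gene in other lists (grey points) in the 3 comparisons, with each list's median (bar) and the median of all genes tested (dashed line). Damage sensing genes have a median of -0.62 under inhibition against control, and S phase and mitosis genes have medians of -0.33 and -0.54 with spermidine against inhibition (-0.07 and -0.28 under total counts).

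Inhibition with spermidine against control reuses both groups and gives the distance that remained. Of the members 15 were higher, 19 lower and 6 did not pass, where 78.1% of all genes passed, 41% higher and 37.1% lower. Under total counts the member split was 18 and 13, and in TPM 11 members were lower. The groups did not overlap for 35 members (79.9% of all genes), and 8 members were at least 2-fold higher and 8 at least 2-fold lower (32.9% of all genes in either direction). The largest rises were Trp53inp1 (2.42, adjusted p = 3.2e-12), Plk2 (2.18, 1.1e-15), Sesn3 (1.69, 7.0e-11) and Mcl1 (1.67, 1.8e-16). The largest falls were Bbc3 (-2.31, adjusted p = 7.5e-08), Rrm2b (-2.18, 1.7e-14), Gadd45g (-1.68, 9.4e-17), Tnfrsf10b (-1.37, 2.5e-11) and Chek2 (-1.36, 1.8e-14). Members with no detected difference from control in the main fit were Fas (0.21, adjusted p = 0.090), Eda2r (0.40, 0.16), Phlda3 (0.07, 0.80), Zmat3 (-0.31, 0.56), Gadd45b (0.11, 0.24) and Brca1 (-0.16, 0.20). Under total counts Fas (0.48, adjusted p = 6.7e-04), Gadd45b (0.38, 7.8e-04) and Eda2r (0.66, 0.025) passed as higher. In TPM Fas (0.42, limma adjusted p = 0.0013), Gadd45b (0.42, 8.8e-04), Eda2r (0.29, 0.027) and Brca1 (0.50, 0.0017) did so.

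Of the regulators, Trp53 was lower by a log2 change of -0.53 (adjusted p = 1.3e-08), which on the TPM scale was -0.09 with limma's adjusted p at 0.059, while Mdm2 was higher by 0.59 (adjusted p = 2.7e-09). Mdm4 was lower by -0.23 (adjusted p = 5.0e-04), although total counts gave 0.03. Bax (-0.77 against -0.27 in TPM), Atm (-0.36 against -0.20) and Atr (-0.59 against -0.12) passed in counts but not in TPM (limma adjusted p between 0.063 and 0.14), and Atm also missed under total counts (0.24). Calls near the threshold were those of Pmaip1 (-0.26, adjusted p = 0.022), Ddb2 (-0.31, 0.014), Bcl2l1 (-0.43, 0.037) and Apaf1 (-0.24, 0.025). Pmaip1 lost its call without control library 1 or 2 or spermidine library 2 (0.052 to 0.11), and in TPM its change was 0.06. Ddb2 lost it without control library 3 or spermidine library 2 (0.067 and 0.068), with 0.04 in TPM. Bcl2l1 lost it without control library 1 or 2 or spermidine library 1 or 2 (0.077 to 0.13), and Apaf1 without control library 1 or 2 or spermidine library 2 or 3 (0.061 to 0.12), with 0.23 in TPM for Apaf1.

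Summed on the TPM scale, the damage sensing genes stood at 353 ± 3.9 in control, 129 ± 3.1 under inhibition and 175 ± 0.20 with spermidine. The arrest targets stood at 371 ± 5.1, 193 ± 2.8 and 228 ± 6.9, and the death targets at 41.8 ± 2.4, 20.6 ± 1.5 and 25.6 ± 0.77. The repair targets stood at 83.5 ± 5.1, 39.4 ± 1.8 and 34.2 ± 1.0. The BCL2 family with Apaf1 was lowest in control, with 24.1 ± 0.46, 48.0 ± 1.5 and 70.8 ± 1.2. These sums are set by a few abundant genes, Chek2, Gadd45g, Rrm2b and Mcl1 among them, and are given without a test.

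The rest of the pathway was followed through lists that do not overlap with the members. Cdkn1a, which encodes p21, the classical p53 target for cell cycle arrest, was at 30.2 ± 1.3 CPM in control, 30.5 ± 1.8 under inhibition and 40.3 ± 2.1 with spermidine. It did not pass under inhibition (0.02, adjusted p = 0.82) and rose with spermidine by 0.40 against inhibition (adjusted p = 1.1e-05) and 0.42 against control (3.3e-06). Of 20 further p53 targets, Cdkn1a included, 5 were higher and 12 lower under inhibition (median -0.23). With spermidine 4 were higher and 6 lower against inhibition (8 and 5 under total counts), and 5 higher and 14 lower against control (5 and 12 under total counts). Dram1, a p53 target of the lysosome and autophagy, rose by 2.41 under inhibition (adjusted p = 1.5e-12) and fell by 1.56 with spermidine (3.8e-10), from means of 2.48 to 13.2 to 4.45 CPM. Pidd1, a death-domain adaptor induced by p53, had a log2 fold change of -1.43 under inhibition (adjusted p = 4.2e-08).

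Of 31 tested genes of damage signalling and repair outside the members, 5 were higher and 15 lower under inhibition (median -0.14), and 6 and 11 with spermidine against inhibition, which turned to 17 and 2 under total counts. Parp1, which marks DNA breaks with poly(ADP-ribose), fell from 97.0 to 17.5 CPM (log2 fold change -2.47, adjusted p = 3.0e-16). Topbp1, the activator of ATR, had -1.51 (adjusted p = 2.0e-15). Rpa2, of the single-strand binding complex, rose by 0.70 (adjusted p = 1.6e-11). The value of Atrip, the partner of ATR, is uncertain because it shares exon bases with Trex1 on the same strand (log2 fold change -3.12).

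Among 24 tested apoptosis genes outside the members, 14 were higher and 6 lower under inhibition (median 0.33). Casp8, the initiator caspase below the death receptors, rose (0.83, adjusted p = 4.4e-11), from 60.8 to 109 CPM. With spermidine against inhibition 4 were higher and 10 lower (8 and 4 under total counts), Cycs (cytochrome c) among the 10 (-0.75, adjusted p = 3.3e-10).

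Chek1, Brca1 and part of the repair genes are known to follow the cell cycle, so cell cycle genes are given beside them. Of 20 S phase genes 13 were higher and 3 lower under inhibition, and 19 were lower and 0 higher with spermidine against inhibition (8 and 1 under total counts, and 8 and 4 in TPM). Of 20 mitosis genes 9 were higher and 8 lower under inhibition, and 18 were lower and 0 higher with spermidine (15 and 0 under total counts, and 10 and 0 in TPM), where Cdk1 had -0.76 and Ccnb1 -0.83. Immediate-early genes went the other way with spermidine, 15 of 18 higher and 0 lower (17 and 0 under total counts and in TPM), Nr4a1 by 1.04. The part of the cycle and of the acute response in the members' differences was not tested.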

How the data were processed

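The authors deposited estimated counts per gene, of which 48.2% are whole to within 1e-06, and TPM, which corrects for transcript length and depth, in matching tables of 9 libraries. Per the submitters' processing notes the build was mm10 and the tools edgeR 3.24.3, HTSeq 0.10.0, STAR 2.6.1d and Trim Galore 0.6.2, and which of them made the fractional counts is not given in the sources used here. Counts were rounded and tested in R 4.3.3 with edgeR 4.0.16 (quasi-likelihood, TMM, default filter on low counts) in 1 fit of 9 libraries with a mean per group. P-values were adjusted by Benjamini-Hochberg over 14461 genes, with a threshold of 0.05. Standard errors were derived from the fold change and its F statistic and are approximate. TPM was tested as log2(TPM + 1) with limma 3.58.1, which understates the change of low genes, and DESeq2 1.42.0 was an alternative. With 3 against 3, an exact permutation test of 1 value cannot go below 0.1 and was not used. Effective length is the ratio of count to TPM, relative to the median gene. On simulated data the fit missed the recovery first asked of it, and met a criterion set afterwards for genes of at least 5 CPM. All members matched GENCODE M21 (mm10). No pairing was used, since the labels do not say that a replicate number marks a shared mouse or batch. Residual correlations of same-numbered libraries ran from -0.0365 to 0.0526. All 40 members are named, and from each other list genes with the smallest p. Members and lists were chosen with earlier results of these data known.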

Additional observations from a re-analysis of the deposited data

How the results depend on the processing

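Under inhibition against control no member that passed changed direction in any of the 19 other settings. Of those that did not pass, Bcl2 changed sign without control library 1 (-0.0074) or inhibition library 2 (-0.012) and Zmat3 without control library 3 (0.68; range over libraries left out -0.84 to 0.68). The member counts stayed within 1.5 times of 17 higher and 17 lower, with 13 and 17 calls kept in every setting that tested the gene. Among these, Bbc3, Perp, Phlda3 and Bcl2l1 were tested in 18 of the 19 settings, the filter of 5 CPM leaving them out. Leaving out 185 genes of other cell types before scaling left the member counts at 17 and 17, 13 and 15, and 15 and 19 in the 3 comparisons. Both spermidine comparisons depended on scaling, and total counts moved the median gene by 0.26.

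For spermidine against inhibition, total counts gave 24 members higher and 5 lower (all genes 7711 and 1793), log2(TPM + 1) gave 21 and 3 (7112 and 1256), and log2(TPM + 0.1) gave 21 and 2 (7079 and 1226). DESeq2 gave 8 higher, and a filter of 5 CPM in 3 libraries gave 8 lower. Leaving out 1 library gave 10 to 13 higher and 9 to 15 lower. Directions reversed under total counts for Trp53 (0.15), Mdm2 (0.14), Ccng1 (0.025), Gadd45g (0.15) and Rrm2b (0.067). With log2(TPM + 1) they reversed for Trp53 (0.18), Mdm2 (0.14), Ccng1 (0.065), Gadd45g (0.22), Rrm2b (0.013), Ddb2 (0.24), Brca1 (0.32) and Apaf1 (0.11). With log2(TPM + 0.1) these were 0.19, 0.15, 0.075, 0.22, 0.014, 0.32, 0.55 and 0.13. Members that missed the threshold in both fits also changed sign. These were H2ax with RLE factors (-8.5e-04), DESeq2 (-6.5e-04) and no filter (-0.026), Bax (-0.011) and Aen (-0.0052) with no filter, and Ddb2 under total counts (0.19) and the 5 CPM filter (0.014). Leaving out 1 library did so for Bax (-0.069), H2ax (-0.014) and Zmat3 (-0.17) without inhibition library 1, Ppm1d without inhibition library 2 (-0.017), and Bbc3 without inhibition library 3 (-0.088) or spermidine library 3 (-0.17). The highest values with 1 library left out were 0.16 for Bax, 0.059 for H2ax, 0.42 for Zmat3 and 0.38 for Bbc3.

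For spermidine against control, log2(TPM + 1) gave 11 members lower (all genes 2811) and log2(TPM + 0.1) 11 (2751), and the 5 CPM filter gave 3918 genes higher, fewer genes being tested. Directions reversed under total counts for Mdm4 (0.029) and Apaf1 (0.027). They reversed with log2(TPM + 1) for Pmaip1 (0.057), Ddb2 (0.042), Brca1 (0.50) and Apaf1 (0.23), and with log2(TPM + 0.1) the values were 0.077, 0.055, 0.91 and 0.27. Among misses in both fits, sign changes were those of Brca1 under total counts (0.10), Zmat3 in log2(TPM + 1) (0.018), log2(TPM + 0.1) (0.13) and without control library 3 (0.82; range -0.70 to 0.82), and Phlda3 without control library 1 (-0.088) or spermidine library 3 (-0.016). The cause of these changes was not tested.

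With the replicate number as a block, members were 17 higher and 17 lower, 12 and 14, and 15 and 19, and the calls of Trp53 (adjusted p = 0.058) and Gadd45b (0.051) in spermidine against inhibition were lost, with no other member call lost. Phlda3, Zmat3, Eda2r, Bbc3 and Perp rest on few counts, so small changes in them were not detectable at this depth.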
